A study of Homo sapiens with 4 samples.

Results

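The genes described here make up the folding and quality control machinery of the endoplasmic reticulum (ER): the sensors of the unfolded protein response, the ER chaperones with their cochaperones, the enzymes of disulfide formation, the factors of ER-associated degradation (ERAD) and the Sec61 translocon. They were chosen by gene symbol, with earlier results of these data known, as were the other gene lists below. Of 45 listed genes, 44 had a value among 19468 genes that could be named in the authors' deposited table of comparisons, and HERPUD1, a membrane scaffold of ERAD, matched no accession there. The measurements came from MDA-LM2 cells, a lung-colonising derivative of MDA-MB-231 human breast cancer cells, in which TARBP2, a double-stranded RNA-binding partner of Dicer, was knocked down. By lipofection, cells received either one of 2 independent TARBP2 siRNAs (siTARBP2-1 and siTARBP2-2, 1 array each) or a control siRNA (siControl-1 and siControl-2, 1 array each), and total RNA was taken 48 hours later. The series design calls the reference mock-transfected, whereas the sample labels call it siControl. The knockdown arrays stand for different siRNAs, so the spread of that pair includes any difference between these siRNAs. For the control pair, no word on whether its cells were grown apart was found, so its spread may be technical.

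As background, proteins that enter the ER through the Sec61 channel are bound by the chaperone BiP, receive disulfide bonds from protein disulfide isomerases that ERO1 oxidases recharge, and are passed back to the cytosol for proteasomal degradation when they fail to fold. Unfolded protein activates the sensors IRE1, PERK and ATF6. IRE1 splices the XBP1 messenger RNA, ATF6 is cleaved to a transcription factor, and PERK phosphorylates the initiation factor eIF2. The spliced XBP1 protein and ATF6 then raise transcription of chaperone and ERAD genes through short promoter elements.

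These elements were looked for in the members because they are the known entry points of the response. Windows of 250 bases before to 50 bases after the transcription start came from RefSeq on GRCh38.p14 and covered 41 of the 45 genes. The other members were PDIA3, DERL1, DERL3 and UFD1. The ER stress element (ERSE) was searched as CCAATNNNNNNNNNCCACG, ERSE-II as ATTGGNCCACG and the unfolded protein response element (UPRE) as TGACGTGG, each on both strands. ERSE lay in a window of 6 of the 41 members (14.6%), against 25 of 27305 genes with a window (0.0916%). ERSE-II lay in 3 members (7.32%) against 0.0696% of all genes, and UPRE in 6 members (14.6%) against 0.927%. The members include genes listed for this response, whose known elements these are. A larger share than over all genes was thus built into the list and is no result. A match describes the letters in this window and is not a site of measured binding. A window without a match can still belong to a gene of the response, since only exact letters in this stretch were searched. The stretches below show the ERSE and ERSE-II members that have a value in the authors' deposited table, with the element in capitals and up to 20 bases on each side, written 5′ to 3′ along the gene (GRCh38.p14, RefSeq). The upstream ERSE-II of HYOU1 overlaps a UPRE.
HSPA5 (chr9:125241371-125241429, minus strand): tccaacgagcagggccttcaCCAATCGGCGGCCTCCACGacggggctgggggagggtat
HSP90B1 upstream element (chr12:103930196-103930254, plus strand): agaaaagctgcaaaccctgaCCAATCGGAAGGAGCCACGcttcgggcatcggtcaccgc
HSP90B1 downstream element (chr12:103930301-103930359, plus strand): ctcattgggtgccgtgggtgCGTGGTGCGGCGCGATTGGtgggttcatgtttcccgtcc
XBP1 (chr22:28800583-28800641, minus strand): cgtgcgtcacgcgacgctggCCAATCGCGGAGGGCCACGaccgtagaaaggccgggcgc
CRELD2 (chr22:49918534-49918592, plus strand): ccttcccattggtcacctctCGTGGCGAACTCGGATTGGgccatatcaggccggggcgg
PDIA6 (chr2:10812833-10812891, minus strand): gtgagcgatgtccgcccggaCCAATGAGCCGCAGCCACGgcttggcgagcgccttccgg
ERO1B (chr1:236282163-236282208, minus strand): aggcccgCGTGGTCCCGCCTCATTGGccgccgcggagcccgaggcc
HYOU1 upstream element (chr11:119057360-119057410, minus strand): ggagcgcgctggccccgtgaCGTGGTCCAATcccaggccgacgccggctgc
HYOU1 downstream element (chr11:119057254-119057304, minus strand): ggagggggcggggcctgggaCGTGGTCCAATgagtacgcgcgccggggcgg
SDF2L1 (chr22:21642094-21642144, plus strand): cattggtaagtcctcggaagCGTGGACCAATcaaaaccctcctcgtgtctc
Elements on the opposite strand appear here as CGTGG before ATTGG or CCAAT. The element began 52 bases before the start in XBP1 and 66 bases before it in HSPA5, the gene of BiP. In ERO1B it began 243 bases before the start. The window of PDIA6 that holds it belongs to 1 of 2 annotated starts of this gene, as does that of XBP1.

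A second group of members held only a UPRE. The 4 with the element before the start are printed in the same way, and in TXNDC11 it lay between bases 6 and 13 after the start.
DNAJC10 (chr2:182716112-182716159, plus strand): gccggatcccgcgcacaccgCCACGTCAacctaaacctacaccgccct
SEC62 (chr3:169966770-169966806, plus strand): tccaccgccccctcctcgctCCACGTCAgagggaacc
VCP (chr9:35072787-35072834, minus strand): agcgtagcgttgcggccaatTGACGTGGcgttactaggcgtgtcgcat
TXNDC5 (chr6:7910142-7910189, minus strand): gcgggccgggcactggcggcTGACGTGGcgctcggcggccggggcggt

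The arrays set how the values can be read. Each array measured 47321 probes, of which 41% to 45.7% were detected, and no table used here gives the genes of the probes. The values of members therefore come from the authors' deposited table, which holds 1 log fold change for each sequence record, with no replicates, no error and no expression level. Its log base is not stated and was read as log2. Per the file headers, a class of 1 marks higher records; the lowest record in that class stood at 0.200012, so 0.2 is used here as the limit, with -0.2 as its mirror. On the authors' normalized values, the control arrays differed by more than 0.2 (log2) for 17.7% of 21075 detected probes. The arrays of the siRNAs differed by more than 0.2 from each other for 70.1% of these probes. In the limma test of knockdown against control, 0 of 21075 probes passed an adjusted p of 0.05 (smallest adjusted p = 0.805), and 815 (3.87%) had an unadjusted p under 0.05. The number past an adjusted p of 0.05 was 4479 without siRNA 1 and 12035 without siRNA 2, with the lone array assumed to vary like the controls. Array siRNA 1 stood apart, with an SD of probe differences of 0.661 to 0.707 from the other 3 arrays, where those 3 differed from each other by 0.159 to 0.296. Replicate error for single members cannot be given, and no member is called changed.

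**Figure D1:**
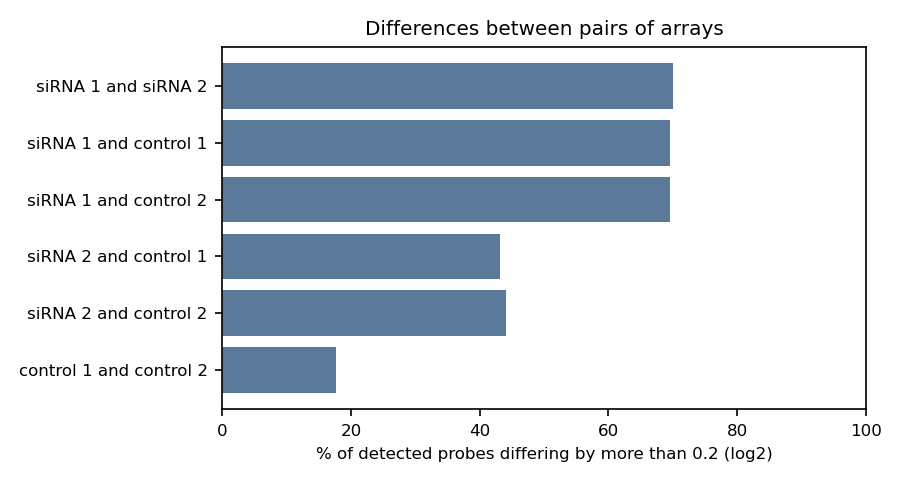
Percentage of the 21075 detected probes (horizontal axis) whose authors' normalized values differed by more than 0.2 on the log2 scale, for each of the 6 pairs of arrays. The control pair stands at 17.7%, the pairs of siRNA 2 with a control at 43.2% and 44.1%, and the 3 pairs with siRNA 1 at 69.6% to 70.1%.

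The target stood lower in the knockdown by the authors' deposited table, where TARBP2 was listed at -0.78 with its records at -0.98 and -0.58. In RNA from whole cultures, fewer cells of a kind and less RNA per cell cannot be told apart. Of the 44 members, 11 stood above 0.2 and 11 below -0.2 by the authors' deposited table (25% each), against 13.1% and 12.1% of all named genes. Together 50% of members lay beyond 0.2 in the authors' deposited table, where 25.2% of all named genes did. That table holds 39745 records, more than the 21075 detected probes. In the probe values, the mean difference of the groups exceeded 0.2 for 33.2% of all probes, for 52.4% of detected ones and for 17.7% of the others, so the share of members is, on this other scale, near that of detected probes. The median of the members was -0.02 in the authors' deposited table, beside 0.002 for all named genes, and their values ran from -0.89 to 1.26. Beyond 0.5 in the authors' deposited table stood 7 members (15.9%, against 6.35% of all named genes), 3 on the high side (against 3.17%) and 4 on the low side (against 3.18%). Each group count that follows is to be read against these all-gene shares (13.1% above 0.2, 12.1% below -0.2). It is also to be read against 26.1% and 26.4% of detected probes, which are on the other scale of the probe values. The members and lists were chosen with earlier results of these data known, so these comparisons are description only. There was no common direction, since the authors' deposited table listed 21 members above 0 and 23 below it. The median size without sign was 0.203 for members against 0.0781 for all named genes in the authors' deposited table.

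**Figure D2:**
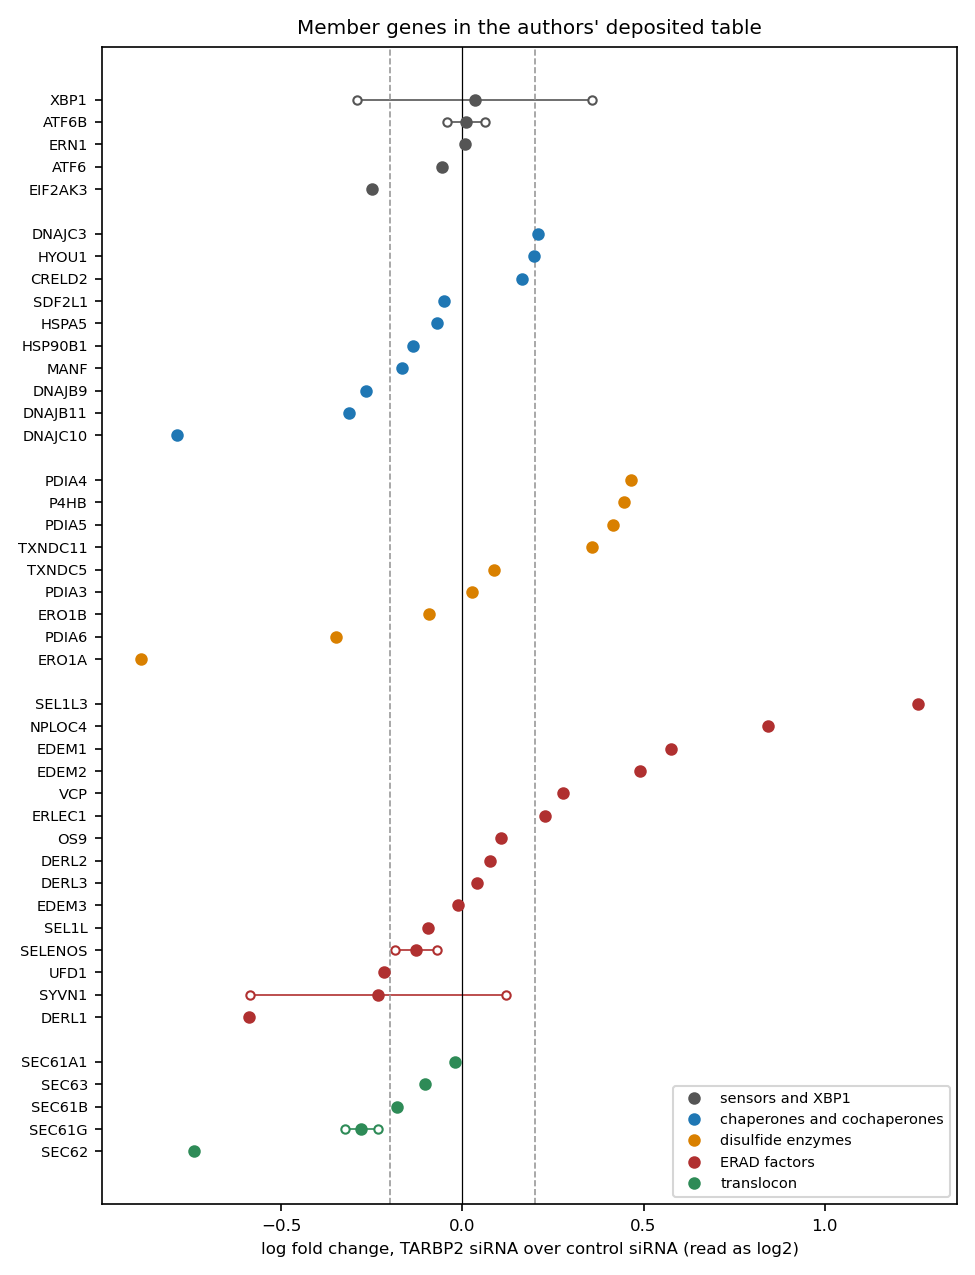
Log fold change of each of the 44 members in the authors' deposited table (horizontal axis, read as log2), by role. Filled points are gene values, open points the 2 records of a gene that has 2, and dashed lines mark -0.2 and 0.2. Values run from -0.89 (ERO1A) to 1.26 (SEL1L3).

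The sensors stood close to 0. ERN1, the gene of IRE1, stood at 0.006 in the authors' deposited table, ATF6 at -0.06 and its paralogue ATF6B at 0.01. EIF2AK3, which encodes PERK, was the exception at -0.25 in the authors' deposited table. XBP1 had a gene value of 0.03, but its records in the authors' deposited table lay on opposite sides of 0, NM_001079539 at 0.36 and NM_005080 at -0.29. As background, RefSeq assigns the first of these records to the spliced, active XBP1 protein and the second to the unspliced one. The gap between the records was 0.65. SDs over probes were 0.159 between the control arrays and 0.707 between the siRNA arrays, but they do not measure the error of a gap between records. No such error can be given here. The probes behind these records are not known here, and whether they separate the spliced form was not tested. The records of ATF6B stood at 0.06 and -0.04 by the authors' deposited table.

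Of 10 chaperone and cochaperone genes, 1 stood above 0.2 (10%) and 3 below -0.2 (30%) by the authors' deposited table, with a median of -0.10. The share below -0.2 is near the 26.4% of detected probes, which is on the other scale of the probe values. HSPA5 stood at -0.07 and HSP90B1, the ER member of the HSP90 family, at -0.14 in the authors' deposited table, both within the limit. CALR, the gene of the lectin chaperone calreticulin and not one of the 45, stood outside it at 0.48 by the authors' deposited table. CANX, the gene of the lectin chaperone calnexin and also no member, lay within it at -0.16, with records at -0.23 and -0.10. HYOU1, an exchange factor of BiP and a large HSP70 relative, stood at 0.1975 in the authors' deposited table, just inside the limit. The lowest chaperone gene was DNAJC10, a J-domain cochaperone with reductase activity that acts in ERAD, at -0.79, with 115 genes of the authors' deposited table below it. The J-domain cochaperones of BiP did not share a direction. DNAJB11 stood at -0.31 and DNAJB9 at -0.27 in the authors' deposited table, while DNAJC3, also known as an inhibitor of PERK, stood at 0.21, just outside the limit. Small secreted or accessory factors of the response lay within it: CRELD2 at 0.17, SDF2L1, a partner of BiP complexes, at -0.05 and the BiP-binding factor MANF at -0.17 in the authors' deposited table.

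Of 9 disulfide enzymes, 4 stood above 0.2 (44.4%, against 13.1% of all named genes) and 2 below -0.2 (22.2%, against 12.1%) by the authors' deposited table. Of detected probes, on the other scale of the probe values, 26.1% stood above 0.2 and 26.4% below -0.2. Protein disulfide isomerases were on both sides. PDIA4 stood at 0.46, P4HB, the gene of the founding isomerase, at 0.45 and PDIA5 at 0.42 in the authors' deposited table. PDIA6, an isomerase that regulates IRE1 signalling, stood at -0.35, and PDIA3, the partner of calnexin and calreticulin, at 0.03 in the authors' deposited table. Among the genes with thioredoxin domains, TXNDC11 stood at 0.36 and TXNDC5 at 0.09 in the authors' deposited table. The oxidases that recharge these enzymes differed in size: ERO1A was the lowest of all members at -0.89, with 79 named genes of the authors' deposited table below it, whereas ERO1B stood at -0.09. ERO1A is also known as a hypoxia-induced gene.

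The genes listed under ERAD held the highest members. Of 15 with a value, the authors' deposited table had 6 above 0.2 (40%) and 3 below -0.2 (20%), with a median of 0.08. SEL1L3, placed here by the gene list and sharing repeats with SEL1L, stood at 1.26, with 5 named genes of the authors' deposited table above it. Whether SEL1L3 acts in ERAD was not tested. SEL1L itself, the adaptor of the HRD1 ligase, stood at -0.09 by the authors' deposited table. The gene of that ligase, SYVN1, stood at -0.23, and its records in the authors' deposited table were far apart, at -0.59 and 0.12. The lectin-like mannosidase family that marks glycoproteins for removal was uneven: EDEM1 stood at 0.57 and EDEM2 at 0.49 in the authors' deposited table, but EDEM3 at -0.01. The lectins that receive those glycoproteins stood at 0.23 (ERLEC1) and 0.11 (OS9) by the authors' deposited table.

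Genes of the extraction machinery of ERAD lay on both sides of 0. NPLOC4, a cofactor of the VCP segregase, stood at 0.84, with 87 named genes of the authors' deposited table above it. VCP, the ATPase that pulls substrates out of the membrane, stood at 0.28 by the authors' deposited table. UFD1, which forms a dimer with the NPLOC4 protein, stood at -0.22, just outside the limit. The genes of this dimer were thus on opposite sides of 0 in the authors' deposited table. Among the derlins, proteins of the retrotranslocation channel, DERL1 stood at -0.59 in the authors' deposited table, DERL2 at 0.08 and DERL3 at 0.04. SELENOS, a selenoprotein that links VCP to derlins, stood at -0.13 by the authors' deposited table, with records at -0.19 and -0.07.

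The translocon was the role group in which every measured gene stood below 0. All 5 had negative values in the authors' deposited table, with a median of -0.18, and 2 were below -0.2. Of all 19468 named genes there, 9538 were below 0. SEC62, which assists import after translation and serves as a receptor for ER autophagy, stood at -0.74, with 163 named genes of the authors' deposited table below it. SEC61G stood at -0.28 from records at -0.33 and -0.23, SEC61B at -0.18 and the channel subunit SEC61A1 at -0.02 in the authors' deposited table. SEC63, the J-domain partner of SEC62, stood at -0.10 by the authors' deposited table.

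Members with an ERSE or ERSE-II mostly stood within the limit. Of 8 with a value, 1 (PDIA6) lay beyond 0.2 in the authors' deposited table (12.5%, against 25.2% of all named genes), and they ran from -0.35 to 0.20 with a median of -0.06. XBP1 counts as within the limit only as the mean of its records, each of which lies beyond it. With the largest record of each gene, 2 of these 8 (25%) lay beyond 0.2 in the authors' deposited table, against 27.7% of all named genes, and they ran from -0.35 to 0.36. Of the 5 members that held only a UPRE, 4 lay beyond 0.2 in the authors' deposited table (80%, against 25.2% of all named genes). DNAJC10 and SEC62 were low, and VCP and TXNDC11 were high. Of 27 members whose windows held no exact match to the 3 elements, 15 (55.6%) lay beyond 0.2 in the authors' deposited table. This share stands beside 25.2% of all named genes, 50% of all members and, on the other scale of the probe values, 52.4% of detected probes. Among the 15 were SEL1L3, NPLOC4, EDEM1 and ERO1A. The 27 include PDIA4, SEL1L, DNAJB9, DNAJB11, DNAJC3 and EDEM1, known ATF6 or XBP1 targets, so they are not genes outside the response. These counts are small and no test of the difference was made. By known regulator, of 7 measured ATF6 targets, 2 stood above 0.2 (28.6%) and 0 below -0.2 by the authors' deposited table, with a median of 0.17; those above were PDIA4 and CALR, which is no member. Of 6 genes known as XBP1 targets from mouse cells, 2 stood above 0.2 (33.3%) and 3 below -0.2 (50%) by the authors' deposited table, with a median of -0.11; SERP1 among them is no member and stood at 0.04.

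**Figure D3:**
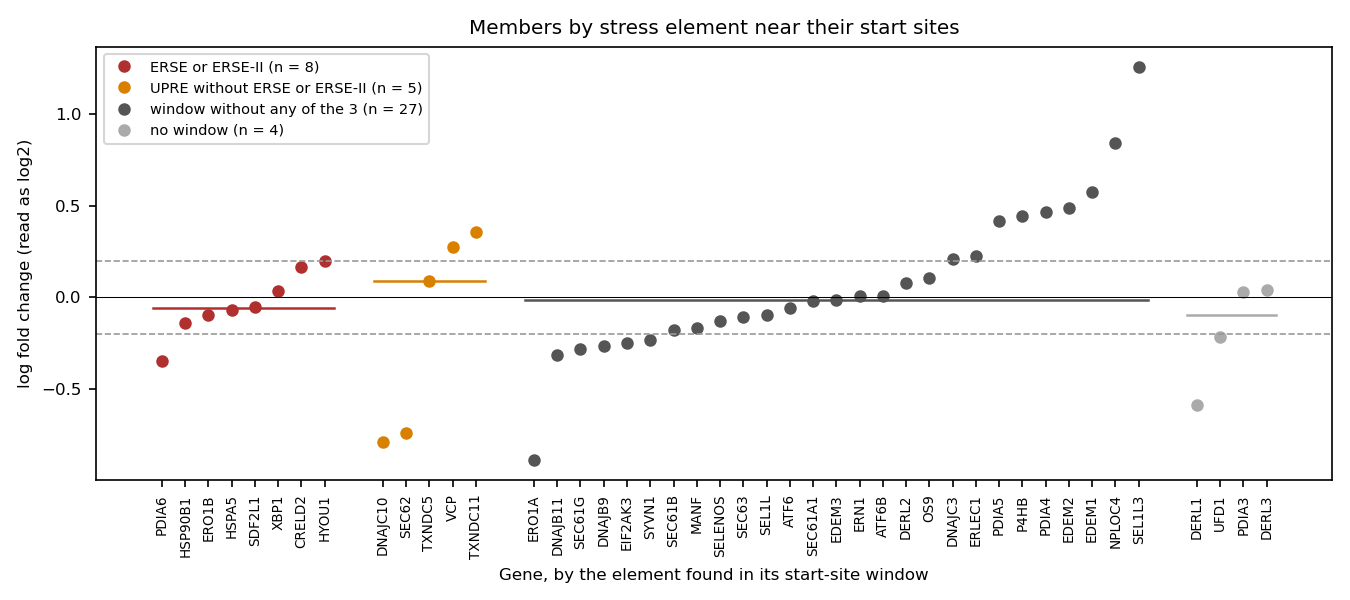
Log fold change of the members in the authors' deposited table (vertical axis, read as log2), grouped by the element found in the start-site window; horizontal bars are group medians and dashed lines mark -0.2 and 0.2. The 8 members with an ERSE or ERSE-II lie between -0.35 and 0.20 (up to 0.36 if XBP1 is taken at its largest record). The 27 without an exact match to any of the 3 elements lie between -0.89 and 1.26.

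A further 106 genes of ER folding and quality control were near the members in their shares. Of these, 25 stood above 0.2 (23.6%) and 29 below -0.2 (27.4%) by the authors' deposited table, with a median of -0.006. The 21 genes of protein targeting, translocation and signal peptide cleavage had 9 below -0.2 (42.9%) and 2 above 0.2 (9.52%) by the authors' deposited table, with a median of -0.19. The farthest of them in the authors' deposited table were TRAM1 at -0.95 and SRP72, a subunit of the signal recognition particle, at -0.94. Next came the receptor gene of that particle, SRPRA, at 0.86 and TRAM2 at -0.58. Among 19 other chaperones and prolyl isomerases, 4 stood above 0.2 and 4 below -0.2 by the authors' deposited table (21.1% each). They included the collagen chaperone gene SERPINH1 at 1.39, the J-domain gene DNAJC1 at 0.55 and the isomerase gene FKBP14 at -0.54 in the authors' deposited table.

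Other thiol oxidoreductases were on both sides, as the member enzymes were. Of 17, 5 stood above 0.2 (29.4%) and 6 below -0.2 (35.3%) by the authors' deposited table, with the membrane-bound TMX3 at -0.73 and TMX1 at -0.55, and VKORC1, which recycles vitamin K, at 0.59. Of 27 other ERAD genes, 6 stood above 0.2 (22.2%) and 5 below -0.2 (18.5%) by the authors' deposited table. BAG6, a chaperone of released membrane proteins, stood at 0.87 with records at 1.12 and 0.62, TMUB1 at 0.64 and AUP1, which recruits a ubiquitin-conjugating enzyme, at 0.55 in the authors' deposited table. Of 14 genes of stress signalling, 6 stood above 0.2 (42.9%) and 4 below -0.2 (28.6%) by the authors' deposited table, together 71.4% against 25.2% of all named genes and 52.4% of detected probes, and none was beyond 0.5. Of 8 genes of the lectin chaperone cycle, CALR included, 2 stood above 0.2 (25%) and 1 below -0.2 (12.5%) by the authors' deposited table.

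**Figure D4:**
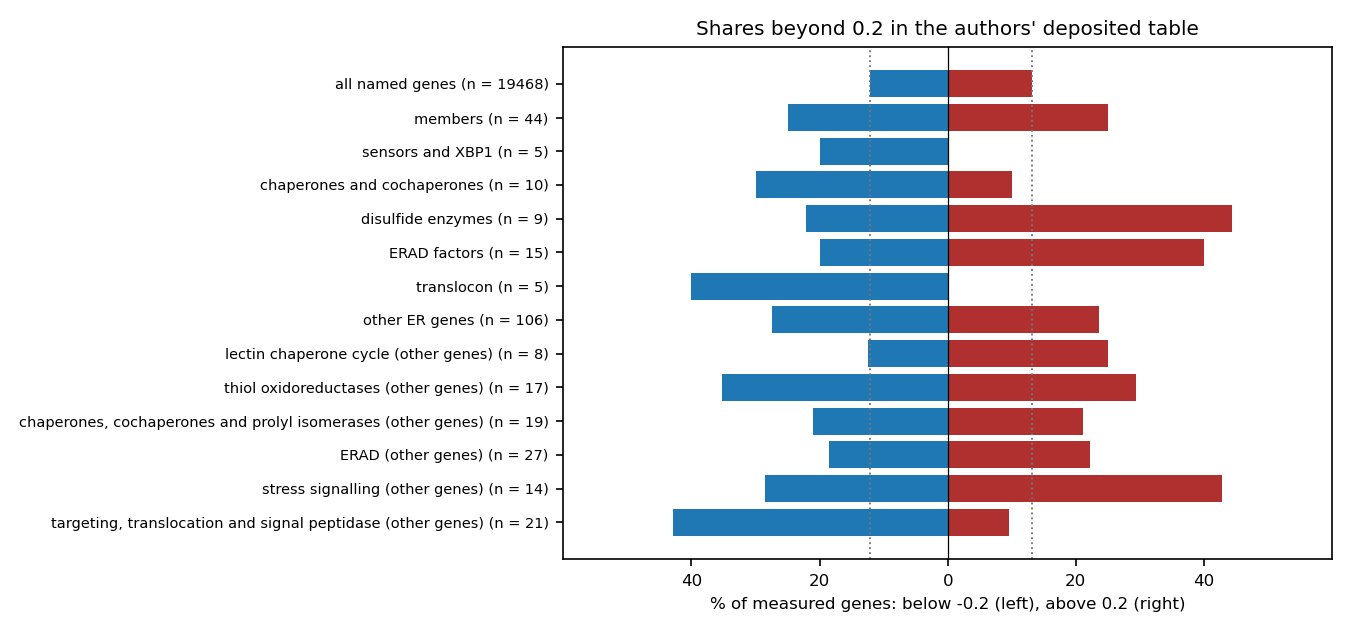
Percentage of measured genes below -0.2 (left) and above 0.2 (right) in the authors' deposited table, for all named genes, the 44 members, their 5 role groups and the other ER genes; dotted lines mark the 12.1% and 13.1% of all named genes. The share below -0.2 is larger than that above 0.2 for translocon genes (40% against 0%) and targeting genes (42.9% against 9.52%), and smaller for disulfide enzymes (22.2% against 44.4%) and ERAD factors (20% against 40%).

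Markers of leukocytes, of epithelial and luminal cells and of mesenchymal cells, as in the parent line, were listed beside these groups. Of 10 leukocyte markers 4 stood above 0.2 (40%) and 1 below -0.2 (10%) by the authors' deposited table, where 13.1% and 12.1% of all named genes did. Of 10 epithelial and luminal markers 3 stood above (30%) and 1 below (10%), and of 10 mesenchymal markers, as in the parent line, 1 above (10%) and 3 below (30%), by the authors' deposited table. Their levels are not in that table, and their part in the values of the members was not tested.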

How the data were processed

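RNA of 4 samples was measured on Illumina BeadChips. Probe intensity values were deposited without normalization, per the file headers, with a detection score between 0 and 1 (a fraction), per the file headers; 1 minus it was used as detection p. A second deposited table of intensity values shared its quantiles across arrays, so the authors had quantile-normalized it; lumi is named in the submitters' processing notes without settings. Log fold changes that the authors deposited were read as log2, and neither their contrast nor the joining of probes behind them is stated in the sources used here.

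Accessions without versions were matched to RefSeq (GRCh38.p14), which named 22411 of 39745 (56.4%); a gene value is the mean over its records (39 members had 1, 5 had 2). limma 3.58.1 under R 4.3.3 normalized the probes (neqc, offset 16), which were kept if detected at p under 0.05 on at least 2 arrays, and compared with lmFit and eBayes with trend (Benjamini-Hochberg), after a run on simulated data. An exact permutation test of 2 against 2 cannot go under p = 0.333. The number of arrays limits the precision. Named genes are all members, TARBP2, and up to 4 other genes of a list beyond 0.5. CALR, CANX and SERP1 are named outside this rule, as lectin chaperone genes or known targets. The members and lists were chosen with earlier results of these data known. The same-numbered arrays were not treated as paired, and the correlation of their deviations was -0.0418. The knockdown arrays also differ by siRNA, so this value cannot show whether the arrays were paired. Alternatives covered the record, the limit, normalization, filter, block and left-out arrays.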

Additional observations from a re-analysis of the deposited data

How the results depend on the processing

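No paired test of members was possible, since their table has no samples. In the probe test the count past an adjusted p of 0.05 stayed at 0 with the replicate block, with the authors' normalized values, with normexp and an offset of 50, with scaling to a common median, without a probe filter, with probes detected on all 4 arrays, without trend, without control 1, and without control 2. It ranged from 0 to 12035 when arrays were left out: 4479 without siRNA 1 and 12035 without siRNA 2, where the lone array is assumed to vary like the controls, and the cause was not tested. Under an unadjusted p of 0.05 the split was 388 higher against 427 lower, but 537 and 196 after scaling to a common median, and 561 and 458 with the replicate block. With a limit of 0.5, members above and below numbered 3 and 4 and the further ER genes 7 and 6 in the authors' deposited table, fewer by construction. The choice of record could move only the 5 members with 2 records, and for these the median equals the mean. With the largest record, XBP1 moved to 0.36 and SYVN1 to -0.59 in the authors' deposited table. These 2 of the 5 moved by more than the SD over probes of 0.159 between the control arrays. Neither moved by more than the 0.707 between the siRNA arrays. These SDs served only as yardsticks and do not measure the error of a move between records. Signal near background limits the values of dim genes.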
